A study of Homo sapiens with 22 samples.

Results

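Histone genes were described in RNA-sequencing libraries of MDA-MB231 cells. MDA-MB231 is a long-established human line of triple-negative breast cancer. The genes were taken by symbol: all HIST1 to HIST4 cluster genes and all genes of the H1F, H2AF, H2BF and H3F series. Of 26485 symbols counted, 94 had such a name, 2 pseudogene symbols were left out, and 55 of the remaining 92 had 10 or more counts in at least 2 libraries. The 55 comprise 2 of 6 replication-dependent linker genes, 38 of 64 replication-dependent core genes, 3 of 4 linker variants, 9 of 14 core variants and 3 of 4 symbols that encode no histone protein (H1FX-AS1, HIST2H2BA and HIST2H2BC). Just inside the minimum were H1FNT and HIST1H2AB, with a second-highest count of 10 each, and just outside were HIST1H2BE and HIST3H3, with 8 each.

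The 22 libraries fall into 3 experiments on HDAC6, a mainly cytoplasmic deacetylase. The first compared wild-type cells given Nexturastat A, an HDAC6 inhibitor, at 7.65 µM for 2 days (n = 2) with Ctrl cells whose treatment label is DMSO (n = 2), both sampled at day 2. The knockdown experiment compared cells carrying either of 2 short hairpins against HDAC6, shHDAC6-1 and shHDAC6-2 (n = 3 each), with shCtrl cells (n = 3), all at day 0. The compound experiment compared wild-type cells given HPOB or Tubastatin A, also HDAC6 inhibitors (n = 3 each), with DMSO cells (n = 3), all at day 2. Doses of HPOB and Tubastatin A, the hairpin vector and whether a hairpin line is a clone are not stated in the labels, and the library titles of the Tubastatin A group carry the letters TSA. Nothing in the labels says that replicates came from separate cultures, so p-values measure the spread between these libraries, which may be technical.

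Replication-dependent histone genes sit in clusters, are transcribed mainly in S phase and supply the bulk of chromatin's core and linker histones. Their mRNAs mostly end in a conserved stem-loop bound by SLBP in place of a poly(A) tail, although several members also give spliced or extended polyadenylated transcripts, more so in cells that leave the cycle. Variant histones such as H1.0 (H1F0), H2A.Z (H2AFZ) and H3.3 (H3F3B) are made throughout the cycle from ordinary polyadenylated mRNAs. The labels state that total RNA entered the libraries and do not state whether poly(A) RNA was selected, so all levels below are levels of the RNA these libraries captured. In bulk libraries, fewer cells in a cycle phase and less RNA per cell cannot be told apart.

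The 3′ end signal was searched in GENCODE 29 transcripts as the stem-loop of 16 bases. It was found in 67 of 58721 genes (0.114%), in 19 of the 40 replication genes kept and in 1 of the 12 variant genes kept, H2AFX. The models of another 19 of the 40 have a length divisible by 3 and no stem-loop, so they may hold coding sequence alone, and no match there says nothing about the gene's 3′ end. The 5 stem-loops below belong to genes that the results turn on, with the paired arms in capitals. The arms come in the same 2 forms, 1 shared by the H2A and H2B genes of the HIST1 and HIST2 clusters and the other by HIST1H4H and H2AFX.
HIST1H2BD: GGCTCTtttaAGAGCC
HIST1H2AC: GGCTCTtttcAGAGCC
HIST2H2BE: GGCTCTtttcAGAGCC
HIST1H4H: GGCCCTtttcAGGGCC
H2AFX: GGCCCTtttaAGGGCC
Among annotated transcripts that hold the stem-loop, the farthest run past it was 1128 bases in HIST1H2AC, 1729 in HIST2H2BE, 1655 in HIST1H4H and 1044 in H2AFX. In HIST1H2BD it was 39 bases. HIST1H2BD and HIST1H2AC each also have 1 annotated transcript without the stem-loop. In 14 of the 40 replication genes kept, an annotated transcript ran 100 or more bases past it.

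Promoters are shown for the 5 replication genes with known polyadenylated transcripts that were higher with Nexturastat A. Each sequence holds the 150 bases before the RefSeq transcription start on GRCh38.p14, written 5′ to 3′ on the gene's strand, with motif matches on either strand in capitals. The first of 5 motifs searched was the box spelled CCAAT. The TATA box was searched as TATAAA. For the H1 box of linker genes the letters were AAACACA. For the GC box they were GGGCGG. The octamer of H2B promoters was searched as ATTTGCAT. No other motif was searched.
HIST1H1C (chr6:26056471-26056620, minus strand): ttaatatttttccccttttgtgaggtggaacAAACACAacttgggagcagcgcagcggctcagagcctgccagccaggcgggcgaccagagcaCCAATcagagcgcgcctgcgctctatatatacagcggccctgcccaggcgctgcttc
HIST1H2BD (chr6:26157971-26158120, plus strand): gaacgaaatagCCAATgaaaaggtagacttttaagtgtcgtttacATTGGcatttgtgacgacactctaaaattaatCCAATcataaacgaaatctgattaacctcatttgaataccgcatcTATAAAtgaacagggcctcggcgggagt
HIST1H4H (chr6:26285535-26285684, minus strand): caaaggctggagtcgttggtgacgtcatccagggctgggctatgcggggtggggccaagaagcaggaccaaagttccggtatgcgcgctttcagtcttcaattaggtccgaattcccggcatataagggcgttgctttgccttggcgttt
HIST1H2AC (chr6:26124022-26124171, plus strand): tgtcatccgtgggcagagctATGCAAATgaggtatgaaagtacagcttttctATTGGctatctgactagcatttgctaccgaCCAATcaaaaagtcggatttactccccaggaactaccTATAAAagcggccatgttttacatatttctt
HIST1H2BK (chr6:27146859-27147008, minus strand): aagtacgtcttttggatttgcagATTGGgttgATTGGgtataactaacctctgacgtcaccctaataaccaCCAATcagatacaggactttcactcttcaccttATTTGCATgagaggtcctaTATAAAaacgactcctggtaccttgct
The octamer stands in the promoters of HIST1H2AC and HIST1H2BK, the H1 box in that of the linker gene HIST1H1C, and the HIST1H4H window holds none of the 5 motifs. Among the 36 replication members with a promoter entry, the CCAAT box was found in 80.6%, the TATA box in 63.9% and the octamer in 25% of these windows, against 24.4%, 7.05% and 0.985% of all 27305 promoters. Of the 10 variant members with an entry, 6 held the CCAAT box and 4 held the TATA box. The GC box ran the other way, in 22.2% of replication windows against 36.7% of all promoters. A match is a description of the letters and not a binding site.

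Most replication histone genes had few counts in every library, and the variants made up most histone counts. Of the 40 replication genes kept, 31 stayed under 100 counts in each of the 22 libraries, although library totals ran from 31.2 to 85.9 M counts. The 33 replication genes outside the list of 7 with known polyadenylated transcripts (HIST1H1C, HIST1H2AC, HIST1H2BC, HIST1H2BD, HIST1H2BK, HIST2H2BE and HIST1H4H) together took 0.221 to 0.763% of the histone counts of a library. The 7 took 0.944 to 10.8%, the linker variants 17.0 to 45.7% and the core variants 43.1 to 77.5%. The list of 7 was drawn from general knowledge of these genes with earlier results of these data known.

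Per kilobase of the longest annotated transcript, the highest histone levels in Ctrl cells were those of H3F3B, H1F0 and H2AFZ. This ranking depends on the longest model, which is 10982 bases for H2AFY and 3804 for H2AFV, against 2344 for H1F0. H3F3B, which encodes H3.3, had 190 to 199.7 CPM per kb (CPM is the count scaled to library size, here over all 22 libraries), H1F0 had 162 to 173 and H2AFZ 137 to 175, so that H3F3B lay above the other two, whose ranges overlapped. HIST1H2BK, which encodes a replication-type H2B, came next with 56.5 to 82.3 CPM per kb in Ctrl cells, overlapping H1FX at 54.7 to 67.4. In DMSO cells HIST1H2BK reached 190 to 209 CPM per kb, above H3F3B at 162 to 167. The model of HIST1H2BK is 381 bases of coding length and shares 74.1% of its 50-base words with other genes, H2BFS sharing the most. Its value per kb is uncertain on both counts.

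Some symbols had no counts, and some could not be read with certainty. H3F3A, which encodes the same protein as H3F3B, was listed at 0 in all 22 libraries, as were 19 other symbols of the 92. These include the near-identical pairs HIST2H2AA3 and HIST2H2AA4, HIST2H3A and HIST2H3C, and HIST2H4A and HIST2H4B. Each of these genes shares 97.1% or more of its 50-base words with other genes, its partner sharing the most. H3F3A shares only 11.7% of its words with other genes. HIST1H2AA, HIST1H2BA, HIST1H3G, HIST1H3I, HIST1H4F, HIST1H4G and HIST1H4L, also at 0, share 0.0%. Why these symbols stood at 0 was not tested. How reads that match several genes were counted is not stated in the labels. Among the genes kept, 7 share at least 50% of their 50-base words with another gene (HIST2H3D, HIST1H2BK, HIST1H2AI, HIST1H2AJ, HIST1H4J, HIST1H4K and HIST1H2AM), and their counts are uncertain.

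**Figure D1:**
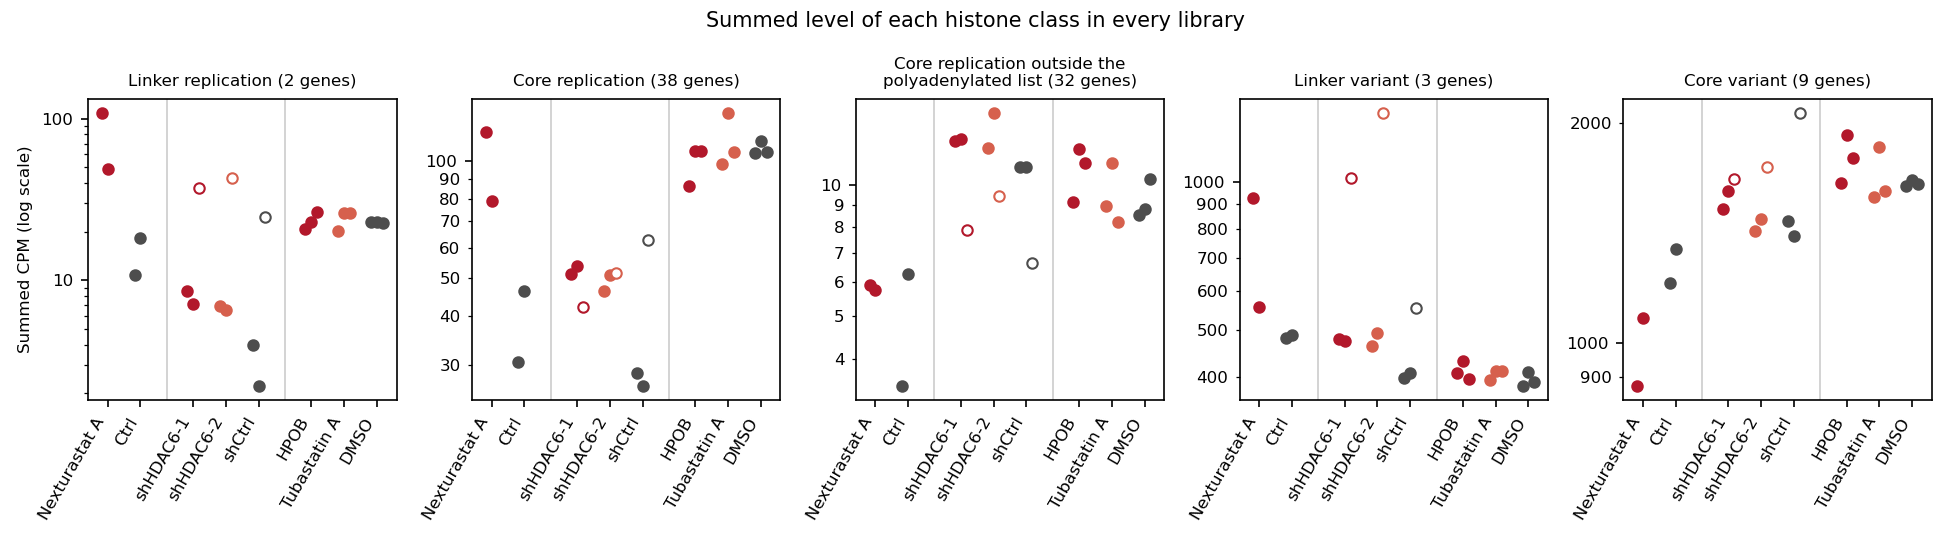
Summed level of each histone class (CPM, log scale) in every library, 1 point per library, grouped by experiment; hollow points are replicate 3 of the knockdown experiment. Core replication genes outside the polyadenylated list sum to 3.46 to 14.6 CPM in every library, while linker variants sum to 383 to 1383 CPM.

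The libraries do not all behave as 1 cell stock. Correlations of log CPM across genes were 0.988 to 0.998 among the 6 knockdown libraries numbered 1 or 2, but 0.857 to 0.905 between these and replicate 3 of the same groups. Replicate 3 was itself divided. Its shHDAC6-1 and shHDAC6-2 libraries correlated at 0.994 with each other, at 0.904 and 0.902 with shCtrl replicate 3 and at 0.89 to 0.909 with the Nexturastat A experiment. The shCtrl library of replicate 3 correlated at 0.987 and 0.99 with the Ctrl libraries of that experiment. CDKN2A, a gene deleted in MDA-MB-231 cells, had 7904 to 10185 counts in the 6 libraries, 611 counts in replicate 3 of shHDAC6-1, 1419 in that of shHDAC6-2 and 0 in that of shCtrl, and at most 2 counts in each of the other 13 libraries. Of the keratin KRT18, an epithelial filament protein, the 6 libraries had 77.9 to 89.1 CPM, against at least 352 CPM in each other library. Calls in the knockdown experiment are given with and without replicate 3, single genes are described in replicates 1 and 2 with the ratios of replicate 3 after them, and stock, experiment and library preparation cannot be told apart.

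Several histone genes followed this division, and the values are a description with no test. H2AFY2, which encodes the variant macroH2A2, had 1559 to 4072 counts in the 6 knockdown libraries numbered 1 or 2 and 4 to 32 in the 13 libraries of the other experiments. Replicate 3 lay between, with 297 counts in shHDAC6-1, 582 in shHDAC6-2 and 47 in shCtrl. HIST3H2A, a replication-type H2A gene of the small cluster on chromosome 1, had 162 to 286 counts in the 6 libraries and 0 in each of the 13. Of the 52 kept genes that encode a histone protein, 4 (HIST3H2A, HIST3H2BB, HIST1H4D and HIST1H4E) had 0 counts in all 13, where a count of 0 allows up to 3 counts per library; such limits cover counting error only. HIST1H3E had 21 to 37 counts in the 6 libraries and at most 1 in any of the 13. This gene and the 4 were kept only through knockdown libraries, so their low counts elsewhere are partly built into the rule. The share of all genes with such a pattern was not counted.

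Other members did not follow the same division. HIST1H1C, the gene of linker histone H1.2, lay at 1.90 to 7.81 CPM in the 6 libraries, at 24.1 to 42.0 CPM in replicate 3 and at 10.4 to 107 CPM in the 13, so the 6 libraries were lowest. H2AFX, which encodes the H2A.X that is phosphorylated at DNA breaks, lay at 83.6 to 106 CPM in the 6 libraries, at 219 to 241 CPM in replicate 3 and at 209 to 250 CPM in the compound experiment. On this scale it had 17.0 and 59.3 CPM in the Nexturastat A libraries and 84.8 and 100 CPM in Ctrl, so that Ctrl lay within the range of the 6 libraries. H1FX, the gene of H1.10, stood at 621 and 729 CPM in replicate 3 of shHDAC6-1 and shHDAC6-2, against 160 CPM in replicate 3 of shCtrl. No other library had over 292 CPM of it.

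**Figure D2:**
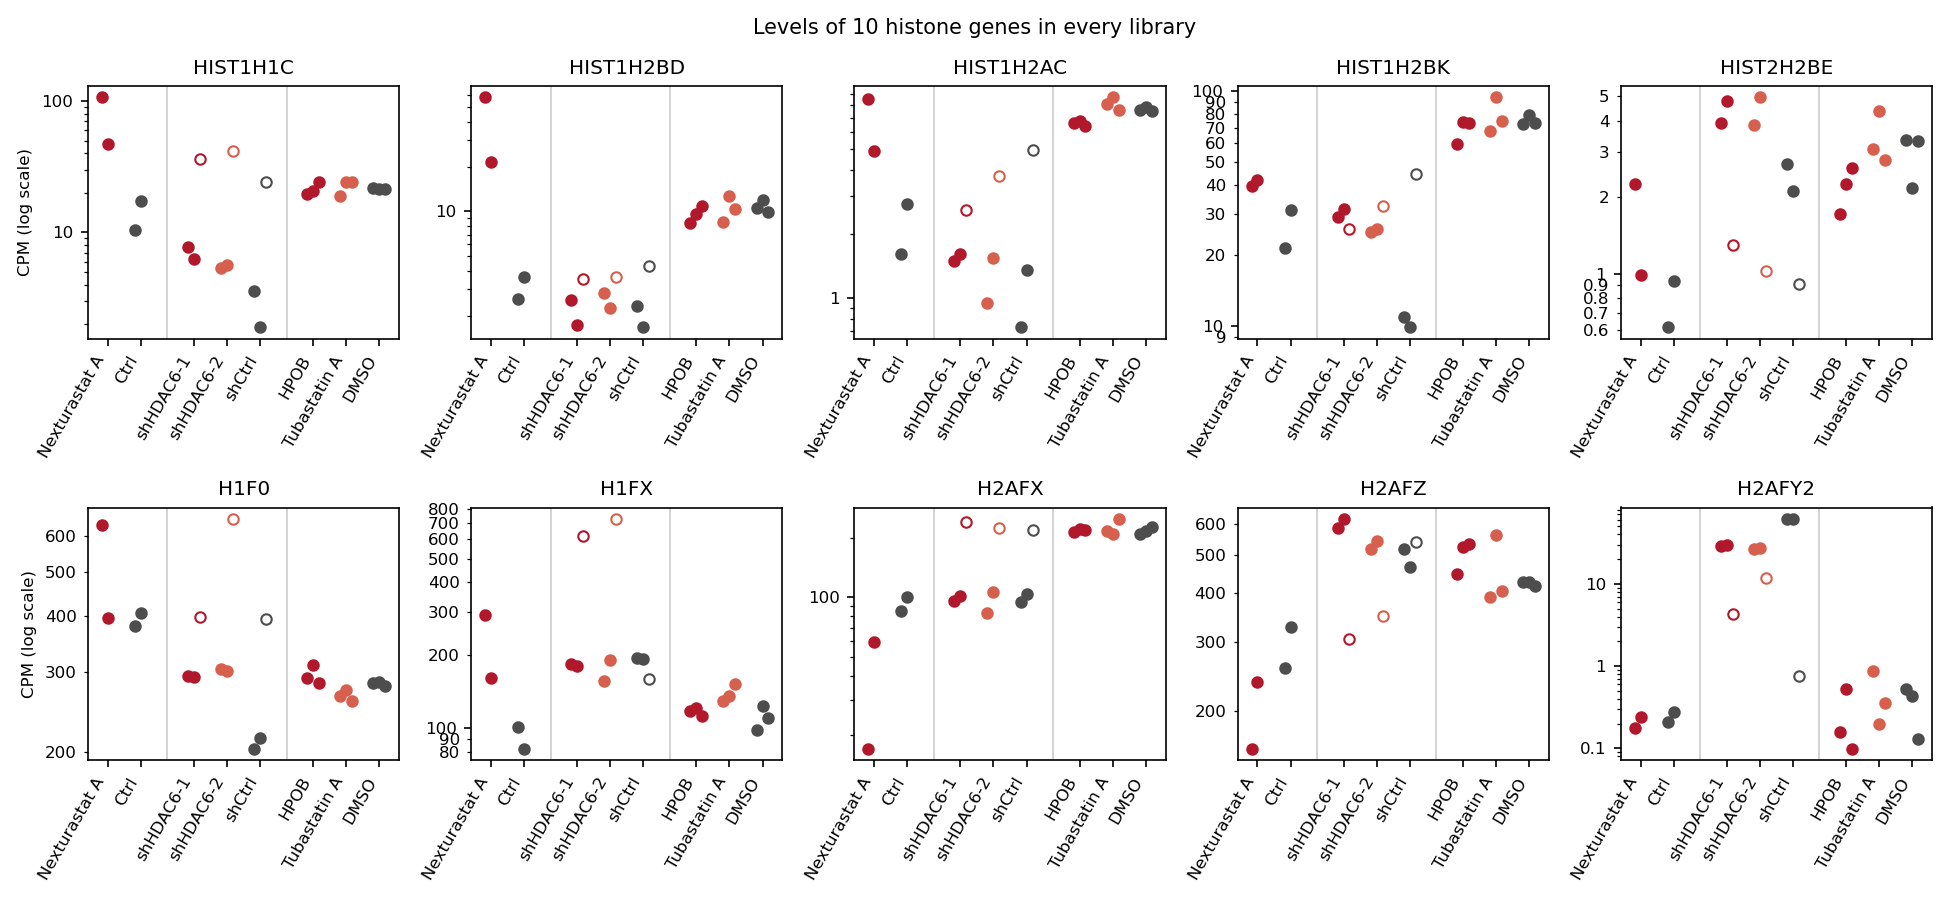
Level (CPM, log scale) of 10 histone genes in every library, 1 point per library; hollow points are replicate 3 of the knockdown experiment. HIST1H1C and HIST1H2BD are highest in the 2 Nexturastat A libraries, and H2AFY2 is at 26.4 CPM or more only in knockdown replicates 1 and 2.

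Nexturastat A was compared with Ctrl to ask what inhibition of HDAC6 does to the transcriptome. Both linker replication genes and a subset of core replication genes were higher, while core variants other than H2AFJ had negative values. By edgeR's quasi-likelihood test with Benjamini-Hochberg adjustment over all genes (called means adjusted p under 0.05), 11 of 32 tested members were called, or 34.4%, beside 36.6% of all 16678 genes tested. Of them 9 were higher (28.1% of members, against 21.1% of all genes) and 2 lower (6.25%, against 15.5%). The share called is thus near that of all genes. The other 23 members kept did not pass the filter on low counts in this experiment.

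Linker histones bind the DNA between nucleosomes and compact chromatin. HIST1H1C had 111 and 48.4 CPM in the Nexturastat A libraries, against 10.9 and 18.2 CPM in Ctrl, a log2 fold change of 2.45 ± 0.53 (SE; adjusted p = 0.0317, edgeR). HIST1H1E, the gene of H1.4, had 2.36 and 1.71 CPM with Nexturastat A, against 0.376 and 0.943 CPM in Ctrl (1.62 ± 0.49, adjusted p = 0.038, edgeR). Neither gene's groups of 2 libraries overlapped, which is a description, and for both the first Nexturastat A library was the higher. H1FX had 304 and 165 CPM with Nexturastat A, against 107 and 86.2 CPM in Ctrl (1.28 ± 0.31, adjusted p = 0.0266, edgeR). Its antisense neighbour H1FX-AS1, which overlaps it on the other strand, was lower at 1.1 and 1.59 CPM, against 2.89 and 2.54 CPM in Ctrl (-1.01 ± 0.32, adjusted p = 0.0458, edgeR), and since the strandedness of counting is not given, reads of the overlap cannot be assigned. H1F0, the linker histone of differentiated and resting cells, had 660 and 407 CPM with Nexturastat A, against 399 and 424 CPM in Ctrl. Its groups overlapped, and 0.37 ± 0.22 was not called (adjusted p = 0.223, edgeR).

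Of 18 core replication genes tested, 5 rose (27.8%, beside 21.1% of all genes) and none fell with Nexturastat A. HIST1H2BD, an H2B gene, had 60.5 and 22 CPM in the Nexturastat A libraries, against 2.73 and 3.81 CPM in Ctrl (3.66 ± 0.60, adjusted p = 0.0143, edgeR). HIST1H4H, an H4 gene, had 220 and 174 counts with Nexturastat A, against 8 and 13 counts in Ctrl (4.18 ± 0.41, adjusted p = 0.00118, edgeR). These were the 2 largest log2 fold changes among the members. HIST1H2AC, an H2A gene, had 8.89 and 5.04 CPM with Nexturastat A, against 1.69 and 2.90 CPM in Ctrl (1.60 ± 0.38, adjusted p = 0.0167, edgeR). HIST1H2BN had 115 and 66 counts with Nexturastat A, against 20 in each Ctrl library (2.14 ± 0.47, adjusted p = 0.013, edgeR); its exons overlap HIST1H2AK and HIST1H2AL. HIST1H2BK had 41.0 and 43.0 CPM with Nexturastat A, against 22.6 and 32.8 CPM in Ctrl (0.60 ± 0.19, adjusted p = 0.0477, edgeR). HIST2H2BE had 2.34 and 1.02 CPM against 0.649 and 0.977 CPM in Ctrl and was not called (1.05 ± 0.49, adjusted p = 0.135, edgeR).

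The replication genes that rose belong mainly to the list with known polyadenylated transcripts. All 7 genes of that list had positive values with Nexturastat A, with a median log2 fold change of 1.60, beside 0.03 over all genes tested. Of them 5 were called, all higher (71.4%, beside 21.1% of all genes). The list was drawn up with earlier results of these data known, so this overlap is a description and no support. All 7 passed the filter on low counts, while only 18 of the 38 core replication genes kept did. The 2 called replication genes outside the list were HIST1H1E and HIST1H2BN. Summed over the 32 core replication genes outside the list, levels were 5.91 and 5.76 CPM with Nexturastat A, against 3.46 and 6.26 CPM in Ctrl, so the groups overlapped. Summed over the 7, they were 219.6 and 120.4 CPM with Nexturastat A, against 37.4 and 57.4 CPM in Ctrl. The median of the 18 core replication genes tested was 0.36.

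Of 7 core variants tested, H2AFJ rose and H2AFY fell (14.3% each, beside 21.1% and 15.5% of all genes). H2AFJ, the gene of H2A.J, a variant reported to accumulate in senescent cells, had 67.3 and 61.6 CPM with Nexturastat A, against 32.2 and 30.8 CPM in Ctrl (1.03 ± 0.13, adjusted p = 0.00257, edgeR). H2AFY, the gene of macroH2A1, had 90.3 and 103 CPM with Nexturastat A, against 148 and 162 CPM in Ctrl (-0.68 ± 0.13, adjusted p = 0.00845, edgeR). The other 5 core variants tested had negative values and were not called. H2AFX showed the widest spread of them, with 17.7 and 61.1 CPM in the Nexturastat A libraries, against 89.1 and 105 CPM in Ctrl (-1.30 ± 0.63, adjusted p = 0.187, edgeR). H2AFZ had 167 and 245 CPM with Nexturastat A, against 271 and 344 CPM in Ctrl (-0.58 ± 0.21, adjusted p = 0.0648, edgeR). H3F3B had 434 and 472 CPM with Nexturastat A, against 556 and 583 CPM in Ctrl (-0.33 ± 0.13, adjusted p = 0.0812, edgeR). For these 3 genes the groups of 2 libraries did not overlap, a description given without the share of all genes and no support for a fall.

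**Figure D3:**
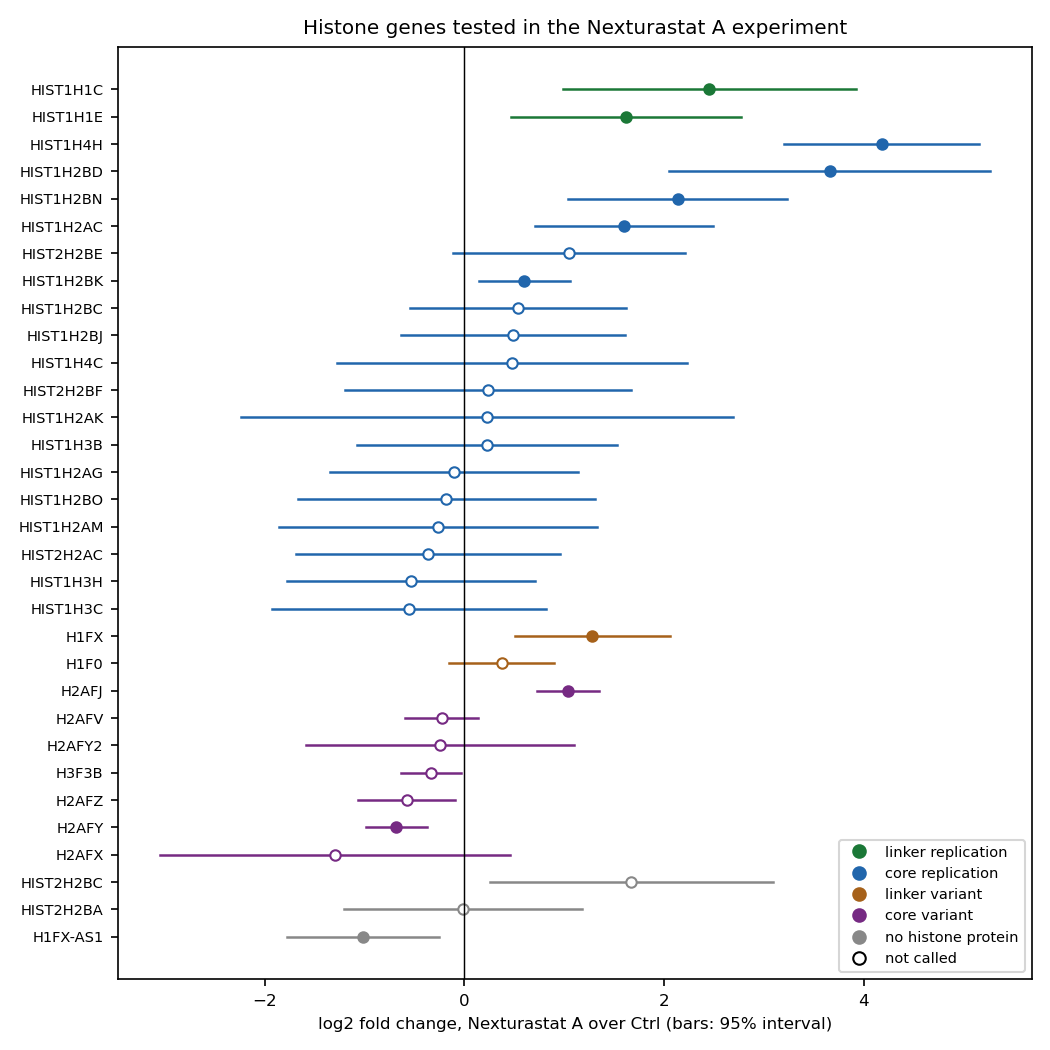
Log2 fold change of each histone gene tested, Nexturastat A over Ctrl, with its 95% interval; colour gives the class and filled points were called. HIST1H4H at 4.18 and HIST1H2BD at 3.66 lie farthest to the right, and of the core variants H2AFJ alone lies to the right of 0.

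Genes that make, process and handle histones were lower in part with Nexturastat A. Of 17 genes of the histone locus body and histone mRNA 3′ processing, 6 fell (35.3%, beside 15.5% of all genes) and none rose, so that the share called in either direction was near the 36.6% of all genes. Among the 6 were LSM11 of the U7 snRNP (-1.04 ± 0.16), CASP8AP2 (-0.95 ± 0.18) and NPAT (-0.57 ± 0.18), the transcriptional coactivator of replication histone genes. SLBP itself was not called (-0.19 ± 0.16, adjusted p = 0.382, edgeR). Of 24 histone chaperones and related factors, 12 fell (50%, beside the same 15.5%) and none rose, led by NASP, a chaperone of H3-H4 and linker histones (-1.27 ± 0.22), and HAT1, which acetylates new H4 (-1.18 ± 0.24). Of 34 genes of DNA replication and S phase, 4 fell (11.8%, below the 15.5% of all genes), including PCNA (-0.97 ± 0.21), and all 34 had negative values with a median of -0.98. All 15 mitosis genes also had negative values, with a median of -1.76, and none was called; 8 had an unadjusted p under 0.05. Of 14 genes of cell cycle exit tested, 3 rose and 1 fell (28.6% called, beside 36.6% of all genes). Among those that rose was CDKN1A, the p21 inhibitor of cyclin-dependent kinases (2.20 ± 0.16). The part of these changes in the histone results was not tested.

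The Nexturastat A libraries differed from each other more than the Ctrl libraries did, with a chi-square statistic of their counts of 114 per gene between the Nexturastat A libraries and 21.5 between the Ctrl libraries, and 1 library decides several calls. Leaving out each library in turn gave 2 to 17 called members: 2 without Ctrl replicate 1, 4 without Ctrl replicate 2, 10 without Nexturastat A replicate 1 and 17 without Nexturastat A replicate 2. Shares of all genes called in these fits are not given, so these counts are not read as a result about histone genes. HIST1H4H gave 3.87 to 4.55 and H2AFJ gave 0.97 to 1.09 over the 4 fits. HIST1H4H had entered the main fit through its Nexturastat A libraries. All 11 called members kept their direction. HIST1H1C gave 1.74 to 2.93 over these fits, with a highest adjusted p of 0.123 (edgeR, without Ctrl replicate 1, the lone Ctrl library assumed to vary like the other group), and HIST1H2BD gave 2.75 to 4.21, with a highest adjusted p of 0.108. HIST1H1C also lost its call with the replicate number as a block (adjusted p = 0.0614, edgeR) and with no filter on low counts (adjusted p = 0.0793, edgeR). Without Nexturastat A replicate 2, H1F0 was called at 0.68, and without replicate 1 it was at -0.02. H2AFX was called without either Nexturastat A library, at -0.67 without replicate 1 and -2.45 without replicate 2.

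HDAC6 was knocked down with 2 hairpins to ask the same question without a compound. The target itself had 12.8 and 12 CPM in shHDAC6-1 and 12.4 and 14.0 CPM in shHDAC6-2 of replicates 1 and 2, against 45.6 and 52.9 CPM in shCtrl. In replicate 3, scaled over all libraries, it had 11.4 CPM in shHDAC6-1 and 14.0 CPM in shHDAC6-2, against 26.2 CPM in shCtrl. With all 9 libraries in the fit, edgeR called 0 of 46 tested members with either hairpin, as it called 0% of the 17653 genes tested. At an unadjusted p under 0.05 there were 0 members with shHDAC6-1 and 1 with shHDAC6-2, and DESeq2 called 0 members with either. HDAC6 was not called there either (adjusted p = 1, edgeR).

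Within replicates 1 and 2, 11 of 46 tested members were called with shHDAC6-1 (23.9%, beside 30.5% of all 17702 genes) and 8 of 46 with shHDAC6-2 (17.4%, beside 27.6%). With shHDAC6-1 9 were higher (19.6%, beside 15.3%) and 2 lower (4.35%, beside 15.2%). With shHDAC6-2 7 were higher (15.2%, beside 14.4%) and 1 lower (2.17%, beside 13.2%). Both hairpins are set against the same shCtrl libraries, so their values are given side by side and are no independent repeats.

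Both replication linker genes and H1F0 rose with each hairpin in these libraries. HIST1H1C had 8.42 and 6.69 CPM in shHDAC6-1 and 5.80 and 6.18 CPM in shHDAC6-2, against 3.79 and 2.01 CPM in shCtrl. The log2 fold changes were 1.39 ± 0.24 with shHDAC6-1 (adjusted p = 0.000107, edgeR) and 1.05 ± 0.24 with shHDAC6-2 (adjusted p = 0.00172, edgeR). HIST1H1E changed by 1.23 ± 0.45 with shHDAC6-1 (adjusted p = 0.0402, edgeR) and by 1.77 ± 0.44 with shHDAC6-2 (adjusted p = 0.0039, edgeR), on 20 to 101 counts per library. The call with shHDAC6-1 depends on the processing: it held in 3 of 7 other settings, with a highest adjusted p of 0.0808 (edgeR), and was lost with DESeq2 (adjusted p = 0.0655). H1F0 had 318 and 314 CPM in shHDAC6-1 and 329 and 330 CPM in shHDAC6-2, against 216 and 227 CPM in shCtrl. Its changes were 0.51 ± 0.11 (adjusted p = 0.000992, edgeR) with shHDAC6-1 and 0.57 ± 0.11 (adjusted p = 0.000366, edgeR) with shHDAC6-2. No hairpin library overlapped shCtrl in H1F0, a description given without the share of all genes. H1FX was called with neither hairpin, at -0.07 ± 0.12 with shHDAC6-1 and -0.12 ± 0.12 with shHDAC6-2.

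Of 31 core replication genes tested, 5 rose with shHDAC6-1 (16.1%, beside 15.3% of all genes) and 4 with shHDAC6-2 (12.9%, beside 14.4%), and none fell with either. The shares that rose are near those of all genes. HIST1H2BK had the smallest adjusted p, with 31.6 and 33.7 CPM in shHDAC6-1 and 27.2 and 28.3 CPM in shHDAC6-2, against 11.6 and 10.4 CPM in shCtrl. It changed by 1.57 ± 0.14 with shHDAC6-1 (adjusted p = 2.32e-08, edgeR) and by 1.33 ± 0.14 with shHDAC6-2 (adjusted p = 2.26e-07, edgeR). HIST2H2BE, another H2B gene, rose by 0.88 ± 0.23 with shHDAC6-1 and 0.90 ± 0.23 with shHDAC6-2 (adjusted p = 0.00501 and 0.00422, edgeR), at 2.23 to 5.37 CPM. HIST1H4E and HIST1H2BC also rose with each, on 8 to 40 and 20 to 90 counts per library. HIST1H4E was under 10 counts in shCtrl replicate 2, so it passed the filter on low counts through the hairpin libraries, where it is high. HIST1H4E changed by 2.01 ± 0.59 with shHDAC6-1 and 1.74 ± 0.59 with shHDAC6-2, and HIST1H2BC by 1.12 ± 0.41 and 1.35 ± 0.41. HIST1H3B, an H3 gene with 14 to 48 counts, was called with shHDAC6-1 (1.72 ± 0.52) and not with shHDAC6-2 (1.26 ± 0.53, adjusted p = 0.0776, edgeR); the difference between the hairpins was not tested.

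The 2 genes that led the response to Nexturastat A were not called with a hairpin. HIST1H2BD had 2.74 and 1.84 CPM in shHDAC6-1 and 3.04 and 2.45 CPM in shHDAC6-2, against 2.46 and 1.77 CPM in shCtrl, with 0.12 ± 0.28 (95% interval -0.45 to 0.69) and 0.38 ± 0.27 (-0.18 to 0.94). HIST1H4H, with 6 to 18 counts per library, changed by 1.1 ± 0.74 and 0.52 ± 0.76. HIST1H2AC changed by 0.59 ± 0.35 with shHDAC6-1 and 0.29 ± 0.35 with shHDAC6-2 and was called with neither. The whole polyadenylated list, chosen with earlier results known, had 4 of 7 genes called with each hairpin, all higher. This is 57.1%, beside 15.3% of all genes with shHDAC6-1 and 14.4% with shHDAC6-2. The medians of the list were 1.1 and 0.90, beside -0.02 and 0.00 over all genes.

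Among core variants H2AFY2 fell with each hairpin. It had 31.0 and 31.3 CPM in shHDAC6-1 and 28.5 and 30.0 CPM in shHDAC6-2, against 64.9 and 64.8 CPM in shCtrl. The log2 fold changes were -1.06 ± 0.12 (adjusted p = 1.01e-06, edgeR) with shHDAC6-1 and -1.15 ± 0.12 (adjusted p = 3.48e-07, edgeR) with shHDAC6-2. H2AFY2 is the gene that separated the stocks above, and its exons overlap AIFM2 on the other strand. H2BFM, an H2B gene known from testis, was called lower with shHDAC6-1 (-2.90 ± 1.01, adjusted p = 0.0317, edgeR) on 2 and 2 counts, against 10 and 27 in shCtrl. No other library had 10 or more counts of H2BFM. It was thus kept only through the group where it is high, and its call is no support for a fall. H2AFZ was higher with shHDAC6-1 (0.31 ± 0.11, adjusted p = 0.029, edgeR) and not called with shHDAC6-2 (0.15 ± 0.11). H2AFX, H2AFY, H2AFV, H2AFJ and H3F3B were called with neither, within -0.13 to 0.26.

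**Figure D4:**
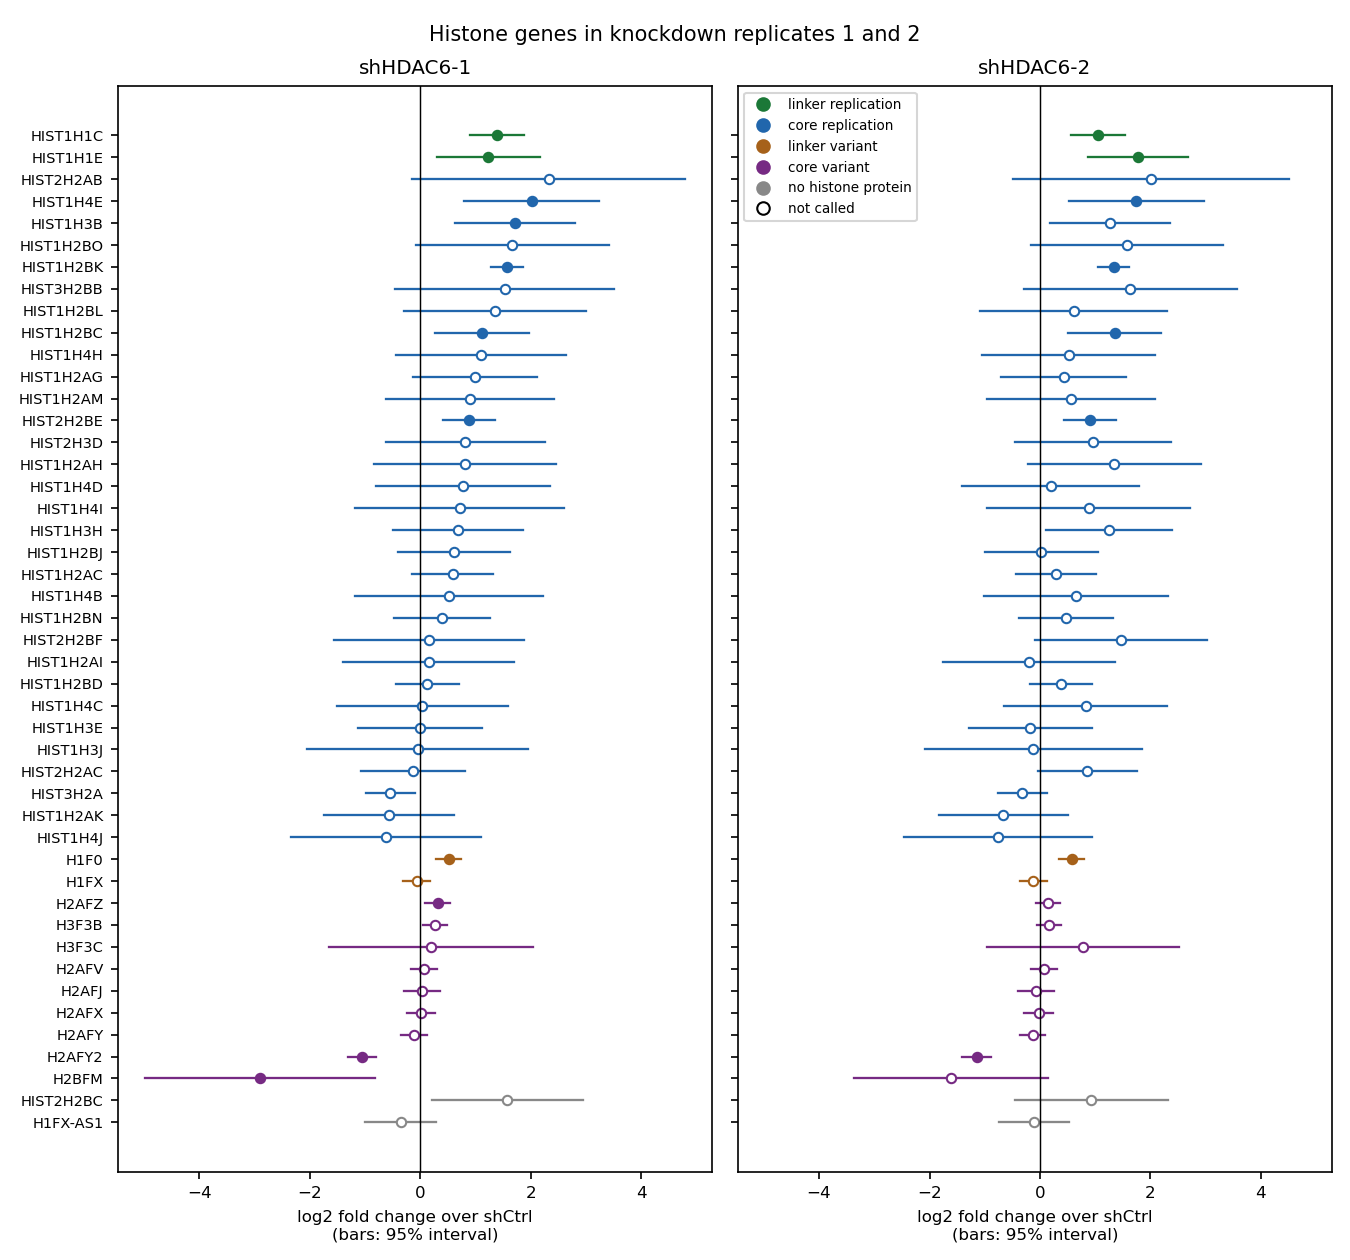
Log2 fold change of each histone gene tested over shCtrl in knockdown replicates 1 and 2, shHDAC6-1 on the left and shHDAC6-2 on the right, with 95% intervals; colour gives the class and filled points were called. HIST1H2BK lies at 1.57 and 1.33 with the narrowest intervals of the core replication genes, and H2AFY2 at -1.06 and -1.15.

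Replicate 3 was set against its own shCtrl library only as a ratio, with no test. HIST1H1C was 1.5 and 1.75 times its shCtrl level in shHDAC6-1 and shHDAC6-2, the direction of replicates 1 and 2. HIST1H2BK ran the other way, at 0.581 and 0.731 times, as did H2AFY2, at 5.64 and 15.6 times. Another 3 genes called in replicates 1 and 2 had ratios below 1 here, HIST1H2BC at 0.772 and 0.905, HIST1H3B at 0.684 and 0.673 and H2AFZ at 0.566 and 0.646 times. HIST1H1E, at 2.26 and 1.74 times, and HIST2H2BE, at 1.43 and 1.13 times, kept the direction of replicates 1 and 2. HIST1H4E had 0 and 2 counts in these hairpin libraries and 0 in shCtrl. H1F0 stood at 1.01 and 1.66 times, H1FX at 3.88 and 4.55 times and H2AFJ at 4.35 and 3.42 times. CDKN2A had 611 and 1419 counts in these hairpin libraries and 0 in the shCtrl library of the same number, so hairpin and stock cannot be told apart in replicate 3.

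In replicates 1 and 2 other genes of the histone pathway moved in both directions, and called S-phase genes were mostly lower. Of the 17 genes of the locus body and 3′ processing, 4 rose and 2 fell with shHDAC6-1 (35.3% called, beside 30.5% of all genes), and 6 rose and 3 fell with shHDAC6-2 (52.9%, beside 27.6%). LSM11 was higher (0.88 ± 0.12 with shHDAC6-1, 0.94 ± 0.12 with shHDAC6-2) and FIP1L1, a subunit of the polyadenylation machinery, lower (-1.01 ± 0.12 and -0.89 ± 0.12). Of 24 chaperones, 4 rose and 7 fell with shHDAC6-1 (45.8% called) and 5 rose and 2 fell with shHDAC6-2 (29.2%), HAT1 being higher in each (0.55 ± 0.13 and 0.41 ± 0.13). Of 34 S-phase genes, 1 rose and 11 fell with shHDAC6-1 (35.3% called), and 1 rose and 9 fell with shHDAC6-2 (29.4%). The share that fell was 32.4% with shHDAC6-1, beside 15.2% of all genes, and 26.5% with shHDAC6-2, beside 13.2%. The gene that rose was RRM2, a subunit of ribonucleotide reductase. Of 15 genes of cell cycle exit, 5 rose and 2 fell with shHDAC6-1 (46.7% called), and 3 rose and 2 fell with shHDAC6-2 (33.3%). CDKN1A, higher with Nexturastat A, was among those lower with each hairpin (-1.04 ± 0.12 and -1.12 ± 0.12).

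Leaving out each library in turn gave 5 to 12 called members with shHDAC6-1, including 7 without shCtrl replicate 2 and 5 without shHDAC6-1 replicate 2, and 7 to 9 with shHDAC6-2. H1F0, H2AFY2, HIST1H1C and HIST1H2BK stayed called in all 6 of these fits with each hairpin, and HIST2H2BE with shHDAC6-2 as well. HIST1H1C ranged over 1.00 to 1.92 with shHDAC6-1 and 0.65 to 1.58 with shHDAC6-2. Shares of all genes called in these fits are not given, so the counts of called members are not read as a result about histone genes. HIST1H2BC with shHDAC6-1 was at 0.58 without shCtrl replicate 2 (adjusted p = 0.401, edgeR with 1 shCtrl library assumed to vary like the other groups) and with shHDAC6-2 at 0.80 (adjusted p = 0.205, edgeR). With shHDAC6-1, HIST1H1E, H2AFZ and H2BFM each lost the call when shCtrl replicate 2 or either shHDAC6-1 library was left out, with highest adjusted p of 0.178, 0.244 and 0.344 (edgeR). HIST1H3B and HIST1H4E lost it when the second library of shHDAC6-1 or of shCtrl was left out (highest 0.0989 and 0.101), HIST2H2BE without shHDAC6-1 replicate 2 (0.0592) and HIST1H2BC also without shHDAC6-1 replicate 1 (0.112). With shHDAC6-2, HIST1H1E lost it without shHDAC6-2 replicate 1 (0.108), and HIST1H4E without shCtrl replicate 2 or either shHDAC6-2 library (highest 0.184).

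HPOB and Tubastatin A were compared with DMSO in the compound experiment, and no histone gene was called with either. edgeR called 0 of 36 tested members with HPOB, beside 0.0261% of all 15338 genes, and 0 of 36 with Tubastatin A, beside 0% of all genes. At an unadjusted p under 0.05 there were 1 member with HPOB and 2 with Tubastatin A, and DESeq2 called 0 with either. The member with HPOB was HIST1H3B, and those with Tubastatin A were HIST2H2BC and H1FX. H1FX had 128, 135 and 151 CPM in Tubastatin A libraries, against 96.8, 122 and 109 CPM in DMSO (0.33 ± 0.11, adjusted p = 0.857, edgeR). These 2 groups of H1FX values did not overlap, a description given without the share of all genes.

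HIST1H1C and HIST1H2BD, both called with Nexturastat A, were not called with either compound, and their intervals bound the change. HIST1H4H, which had the largest value with Nexturastat A, was not called either, and no interval is given for it here. HIST1H1C had 19.2, 20.1 and 23.9 CPM with HPOB and 18.8, 23.9 and 24.0 CPM with Tubastatin A, against 21.4, 21.0 and 21.0 CPM with DMSO. The 95% interval of the log2 fold change was -0.28 to 0.27 with HPOB and -0.20 to 0.34 with Tubastatin A. HIST1H2BD had 8.18, 9.37 and 10.7 CPM with HPOB and 8.47, 12.5 and 10.3 CPM with Tubastatin A, against 10.4, 11.7 and 9.84 CPM with DMSO, with intervals of -0.54 to 0.18 and -0.39 to 0.32. H1F0 had 286, 303 and 280 CPM with HPOB and 264, 272 and 258 CPM with Tubastatin A, against 281, 282 and 276 CPM with DMSO. Its intervals were -0.13 to 0.23 and -0.26 to 0.10. H2AFX was within -0.21 to 0.20 with HPOB and -0.15 to 0.26 with Tubastatin A.

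All 3 compounds are hydroxamic acids that differ in the group attached to the zinc-binding end, an aryl urea in Nexturastat A and a tetrahydro-carboline in Tubastatin A. Each was set against its own controls, and the doses of HPOB and Tubastatin A are unknown, so the values stand side by side and not as a comparison at matched dose. HIST1H1C changed by 2.45 with Nexturastat A, by -0.01 with HPOB and by 0.07 with Tubastatin A. HIST1H2AC changed by 1.60 with Nexturastat A, by -0.23 with HPOB and by 0.09 with Tubastatin A. For H2AFY the values were -0.68 with Nexturastat A, 0.11 with HPOB and 0.02 with Tubastatin A. For H1F0 all 3 intervals included 0, that of Nexturastat A running from -0.15 to 0.90.

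**Figure D5:**
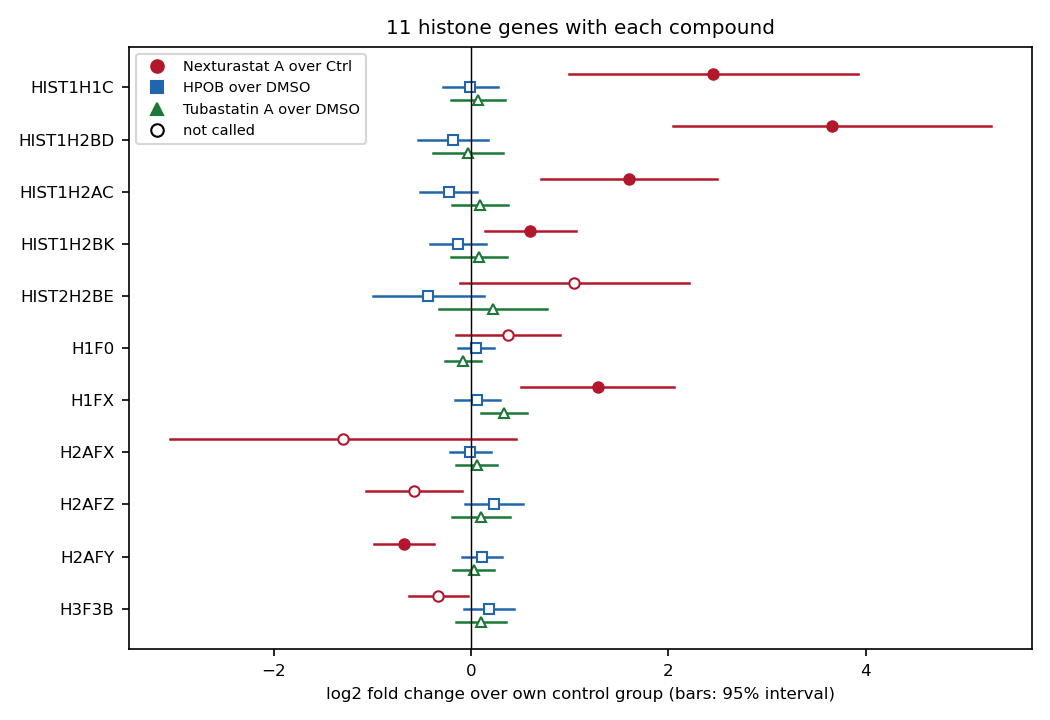
Log2 fold change of 11 histone genes over the own control group of each compound, with 95% intervals; filled points were called. Nexturastat A values spread from -1.30 for H2AFX to 3.66 for HIST1H2BD, while all HPOB and Tubastatin A values lie between -0.43 and 0.33.

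The DMSO and Ctrl groups, both labelled as DMSO-treated wild-type cells at day 2, were themselves far apart. In a fit of the 13 libraries of both experiments, edgeR called 15 of 39 tested members (38.5%, beside 53.9% of all 17083 genes), 14 higher in DMSO (35.9%, beside 27.5%) and 1 lower (2.56%, beside 26.3%). HIST1H2BK had 72.6, 79.8 and 73.6 CPM in DMSO cells, against 21.8 and 31.5 CPM in Ctrl cells (1.5 ± 0.17, adjusted p = 2.14e-06, edgeR). HIST1H2BD had 10.6, 11.9 and 10.0 CPM in DMSO cells, against 2.64 and 3.65 CPM in Ctrl cells (1.79 ± 0.33, adjusted p = 0.000321, edgeR). Of the polyadenylated list 5 of 7 were called, all higher in DMSO cells (71.4%, beside 27.5% of all genes). HIST1H4H had the largest value of 2.25 ± 0.56, HIST2H2BE had 1.92 ± 0.40 and HIST1H2AC had 1.8 ± 0.26. Among variants H2AFX (1.23 ± 0.31), H2AFV (0.71 ± 0.14), H2AFY (0.70 ± 0.11) and H2AFZ (0.53 ± 0.18) were higher and H1F0 was lower (-0.48 ± 0.15). Without Ctrl replicate 1, neither H2AFZ (0.32, adjusted p = 0.281, edgeR) nor H2AFX (1.08, adjusted p = 0.0515, edgeR) was called. Without Ctrl replicate 2, H1F0 was not called (-0.48, adjusted p = 0.0656, edgeR). H2AFV and H2AFY stayed called without each of the 13 libraries.

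HIST1H1C, HIST1H2BD and HIST1H4H in both Nexturastat A libraries lay above every DMSO library, a description with no test. HIST1H2BD had 60.2 and 21.7 CPM with Nexturastat A in this fit, against at most 11.9 CPM in DMSO. HIST1H2AC did not stand above them, with 8.85 and 4.96 CPM with Nexturastat A and 7.57 to 7.91 CPM in DMSO. H1F0 was 657 and 400 CPM with Nexturastat A and 281 to 287 CPM in DMSO. HDAC6 itself was higher in DMSO than in Ctrl cells (1.67), and stock and experiment cannot be told apart.

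The difference between compounds was tested as an interaction in the same 13-library fit, each compound against its own controls and at doses that are unknown for HPOB and Tubastatin A. For Nexturastat A minus HPOB, 10 of 39 members were called (25.6%, beside 17.5% of all genes), 8 higher (20.5%, beside 9.81%) and 2 lower (5.13%, beside 7.69%). For Nexturastat A minus Tubastatin A, 8 of 39 were called (20.5%, beside 19.1%), 6 higher (15.4%, beside 10.6%) and 2 lower (5.13%, beside 8.46%). HIST1H1C differed by 2.51 from HPOB and by 2.45 from Tubastatin A (adjusted p = 0.000434 and 0.000477, edgeR). The DMSO and Ctrl libraries are shared by these terms, so the values stand side by side. The fit estimates the spread of a gene over all its groups together. The chi-square per gene between replicates was 114 for Nexturastat A, 21.5 for Ctrl and 4.42 to 84.1 within groups of the compound experiment. The p-values of these interaction terms therefore do not measure the spread of the Nexturastat A libraries alone.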

How the data were processed

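Gene-level read counts of 22 libraries were used as deposited, 1 table per library with 26485 symbols. The submitters' processing notes name Trim Galore 0.6.7, STAR 2.7.9a, featureCounts 2.0.3, DESeq2 1.30.1 and the build GRCh38, with no settings. Annotation, strandedness and treatment of multiply mapping reads are not stated there. Of the counts from 1 to 40 in a library, 64.0 to 72.5% were even, and the cause was not tested. Each experiment was fitted with edgeR 4.0.16 in R 4.3.3 (TMM, filterByExpr by group with minimum count 10 and total 15, robust quasi-likelihood F test, Benjamini-Hochberg over all genes tested, called at 0.05); intervals are 95%. CPM use the TMM factors of the fit described, or of all 22 libraries where stocks are compared. DESeq2 1.42.0 was an alternative. Fits were checked on simulated counts. Knockdown fits used all 9 libraries and replicates 1 and 2.

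Named genes were 12 genes followed throughout, the called members of largest change and the leading called genes of each list. Members and lists were chosen with earlier results of these data known. Statements that groups did or did not overlap describe the printed values, and the share of all genes without overlap was not counted. In the knockdown experiment, deviations of same-numbered libraries correlated at 0.362 to 0.977 over 9 pairs, but unlike numbers reached 0.958 and replicate 3 stood apart in each group. Within replicates 1 and 2, same-numbered pairs gave -0.178 to 0.487. The main fits used no replicate block, and the block was an alternative. In the compound experiment same-numbered pairs gave -0.301 to 0.528. Stem-loops were searched in GENCODE 29 transcripts (91 of 92 symbols matched), promoters in RefSeq sequences (46 of 52 members matched).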

Additional observations from a re-analysis of the deposited data

Results flagged for a closer look

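The effect of Nexturastat A over Ctrl was set against the effect of HPOB or of Tubastatin A over DMSO as an interaction term in a fit of 13 libraries, and the members below differed between the compounds by that test (edgeR, Benjamini-Hochberg adjustment). Doses of HPOB and Tubastatin A are unknown and the experiments stood apart, so compound, dose and cell stock cannot be told apart. The fit estimates spread over all its groups together, so its p-values do not measure the spread of the Nexturastat A libraries alone. Against HPOB, 10 of 39 members were called (25.6%, beside 17.5% of all genes), and against Tubastatin A 8 of 39 (20.5%, beside 19.1%).

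The differences in log2 fold change, Nexturastat A minus HPOB, were 4.35 for HIST1H4H, 3.89 for HIST1H2BD, 2.85 for HIST1H2BN, 2.51 for HIST1H1C, 1.88 for HIST1H2AC and 0.78 for HIST1H2BK among replication genes. Among variants they were 1.27 for H1FX, 0.94 for H2AFJ, -0.75 for H2AFY and -0.76 for H2AFZ. HIST1H4H, HIST1H2BD, HIST1H1C, HIST1H2AC, H1FX and H2AFY stayed called when any of the 13 libraries was left out; the other 4 did not.

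Nexturastat A minus Tubastatin A gave 3.75 for HIST1H2BD, 3.57 for HIST1H4H, 2.45 for HIST1H1C and 1.57 for HIST1H2AC. Among variants it gave 1.15 for H2AFJ, 1.01 for H1FX, -0.65 for H2AFY and -1.30 for H2AFX. H1FX, H2AFY and H2AFX lost the call when some library was left out, with highest adjusted p of 0.145, 0.0518 and 0.132 (edgeR), and H2AFX then ranged over -2.46 to -0.68.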

How the results depend on the processing

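Counts of called members kept within 1.5 times under DESeq2 size factors, no filter on low counts and DESeq2's Wald test in each comparison. A minimum mean CPM of 5, which leaves 11 or 12 members to test, gave 6 with Nexturastat A, 4 with shHDAC6-1 and 4 with shHDAC6-2 in replicates 1 and 2, and 8 for DMSO against Ctrl. Leaving out each library in turn gave 2 to 17 with Nexturastat A, 5 to 12 and 7 to 9 with the hairpins in replicates 1 and 2, 10 to 16 for DMSO against Ctrl, 7 to 12 and 6 to 11 for the differences between compounds, and 0 with HPOB, with Tubastatin A and with either hairpin over 9 libraries. A lone library was assumed to vary like the other groups. Shares of all genes called are not given for these settings or for the replicate block below. The counts therefore describe the settings and are not read as results about histone genes. Over single genes, leaving out a library kept 1167 values on their side of the threshold and within their spread, with 95 calls lost, 23 gained and 43 other values moved. The other alternatives kept 793, with 20 lost, 11 gained and 2 moved. No called value changed sign.

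With the replicate number as a block, 11 members were called with Nexturastat A, where HIST1H1C lost its call (2.37, adjusted p = 0.0614, edgeR), as it did with no filter on low counts (adjusted p = 0.0793, edgeR), and H2AFZ gained one, 12 and 8 with the hairpins in replicates 1 and 2, 0 with HPOB and Tubastatin A, 14 for DMSO against Ctrl, and 11 and 10 for the differences between compounds. Over the 9 knockdown libraries the block gave 0 with each hairpin. In replicates 1 and 2 with shHDAC6-1 and shCtrl alone, an alternative chosen after seeing the data, the block gave 8 members as numbered and 11 with the numbers crossed. Summed class levels moved by more than the spread between replicates in 6 of 64 cases under other scalings.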
